A study of Caenorhabditis elegans with 14 samples.

Results

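The enzymes of glycolysis, gluconeogenesis, the tricarboxylic acid (TCA) cycle, the glyoxylate cycle and glutamine synthesis were followed in whole worms of 2 *Caenorhabditis elegans* strains at 3 ages. They were chosen by gene name from a list of 44 genes. Of these, 42 had at least 1 element on the array, and together they had 62 of the 22490 worm elements. Glycolysis and gluconeogenesis held 35 elements, the TCA and glyoxylate cycles with pyruvate dehydrogenase 21, and glutamine and glutamate metabolism 6. No element carried the name of gpd-1 or gpd-4, both glyceraldehyde-3-phosphate dehydrogenases, and they were not analysed here.

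Glycolysis breaks glucose down to pyruvate in the cytosol, and pyruvate dehydrogenase passes its carbon as acetyl-CoA to the TCA cycle in the mitochondria. Gluconeogenesis runs toward glucose and bypasses the irreversible steps with phosphoenolpyruvate carboxykinase, fructose-1,6-bisphosphatase and pyruvate carboxylase. The glyoxylate cycle skips the steps of the TCA cycle that release carbon dioxide, so that fat can be turned into sugar, and *C. elegans* is one of the few animals that have it.

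N2, the laboratory strain, and CB4856, a wild strain from Hawaii, were hybridized together on each of 14 arrays with both dyes. Cultures began from hermaphrodites that had not mated, and males that appeared were removed. The worms were grown at 24 °C on *Escherichia coli* OP50, and each sample pooled several dishes. There were 5 arrays at 40 hr (t1, juvenile), 4 at 96 hr (t2, reproductive) and 5 at 214 hr (t3, old). The labels place the t1 worms in late L3 and the methods of the study in late L4. Worms for t2 and t3 spent 30 hr on plates with FUDR (fluorodeoxyuridine), which stops eggs from hatching, so from t1 to t2 age and FUDR cannot be told apart. N2 carried Cy3 in replicates 1 to 3 and Cy5 in replicates 4 and 5. The sample titles number replicates 4 and 5 as 1 and 2 again. They may thus be dye swaps of the extracts of replicates 1 and 2, and were treated here as separate arrays. Nothing says that the arrays came from separate cultures, so the p-values measure the spread between arrays, which may be technical. The extracts were of whole worms, in which fewer cells of a type and less RNA per cell cannot be told apart. The study reports a shorter mean lifespan for CB4856 than for N2. At equal hours a strain difference and a difference in physiological age thus cannot be told apart.

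Between 39.3% and 63% of the worm elements exceeded their local background by more than 2 SD per channel. Of the 62 member elements, 49 did so in all 28 channels and 4 in none, namely 3 of the 5 elements of pck-1 and 1 of the 3 of pfk-1.1. The values below are log2 intensities after background correction, loess normalization within arrays and quantile normalization between arrays. A level is the mean of both strains on an array, and a strain ratio is CB4856 over N2 on an array. Changes were tested with limma over all worm elements and were called where the Benjamini-Hochberg adjusted p was below 0.05.

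One array stood apart in part of its spots. On t3 replicate 5, the first 6 of 48 printed blocks correlated with the mean of the other t3 arrays at r = 0.188 to 0.322, whereas every other block on any array reached at least 0.913. Set against the spot 1 position before, the spots of these 6 blocks correlated at r = 0.954. The blocks held 2788 worm elements, among them those of cts-1, gln-5 and ipgm-1 and 1 dim element of pck-1. For these 4 elements the value of t3 replicate 5 was taken to belong to a neighbouring spot, as for the blocks as a whole. The age changes printed for cts-1, gln-5 and ipgm-1 are given also without it. Leaving those spots out took away none of the calls on members described below. It added calls from t1 to t2 for ipgm-1 and for the dim element 12163 of pyk-1.

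Between 40 hr and 96 hr the levels of many TCA cycle and glycolytic enzymes fell. Of the 62 member elements, 20 (19 genes) were called lower and 3 (3 genes) higher, against 33.7% called among all worm elements, 15.3% lower and 18.4% higher. The median change of the members was -0.31 and that of all elements 0.03. Without normalization between arrays 7 of these 23 calls remained, those of gln-2, gln-6, pfk-1.2, aco-1, aldo-1, hxk-1 and idh-1, and none changed sign. In the arm of the TCA and glyoxylate cycles 10 of 21 elements were lower and none higher, and in the arm of glycolysis and gluconeogenesis 8 of 35 were lower and 1 higher. The difference between the arms was not tested. Of all worm elements, 4140 were called higher and 3444 lower.

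**Figure D1:**
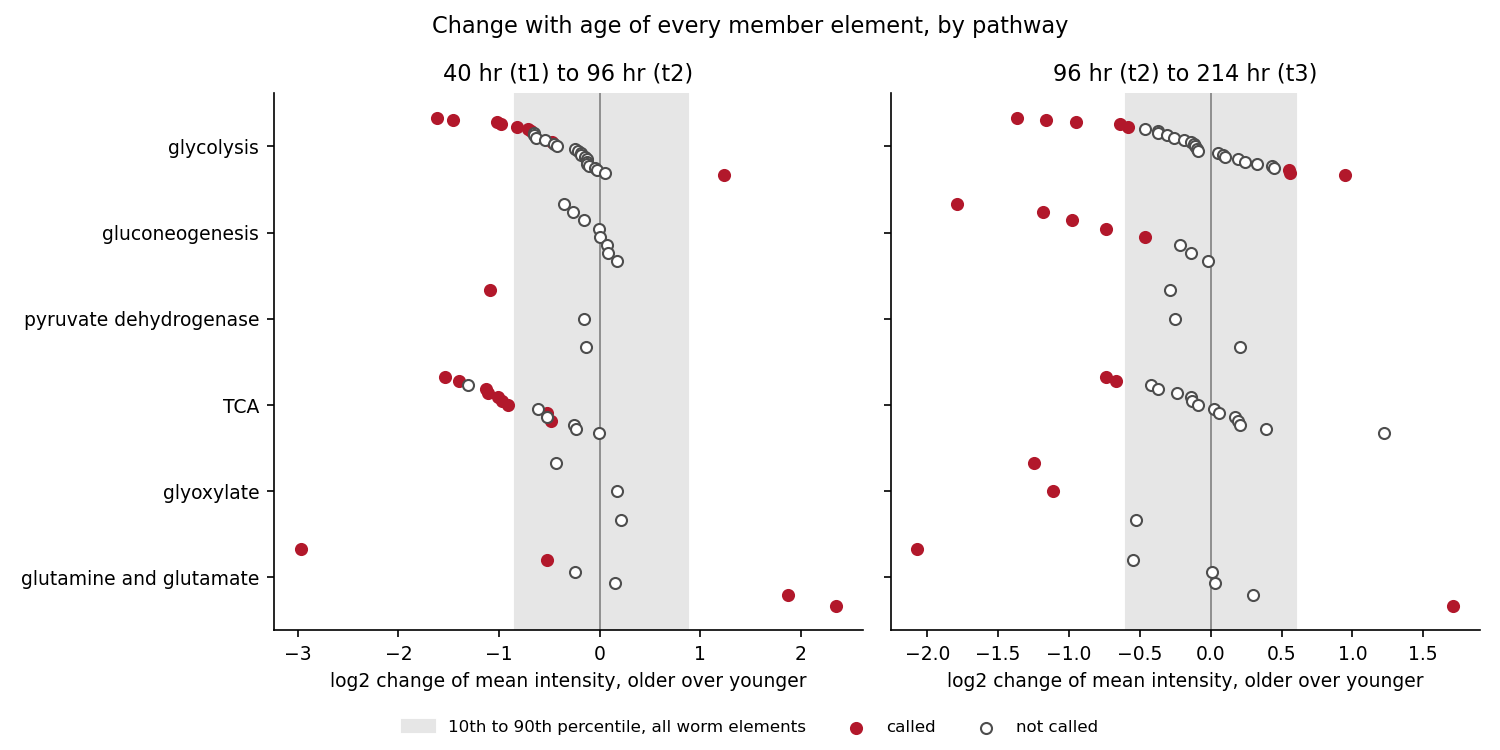
Log2 change of the mean intensity of both strains for each of the 62 member elements (points, filled where called at an adjusted p under 0.05), from 40 hr to 96 hr (left) and from 96 hr to 214 hr (right), in rows by pathway; the grey band runs from the 10th to the 90th percentile of all 22490 worm elements. On the left all 15 TCA elements lie at or below 0, and on the right all 8 elements of gluconeogenesis lie below 0. The directions on the right hold relative to the other elements of an array. Without normalization between arrays they turn for 7 of 19 called elements. The points on the right for cts-1, gln-5, ipgm-1 and 1 dim element of pck-1 include the displaced spots of t3 replicate 5.

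All 15 elements listed under the TCA cycle had a negative change from t1 to t2, with a median of -0.91, and 9 of them (8 genes) were called lower. The list is not limited to mitochondrial enzymes. Without normalization between arrays, only aco-1 and idh-1 of these genes were still called. Cytosolic aconitase, aco-1, had levels of 11.4, 11.27, 11.94, 11.2 and 11.73 at t1 and of 10.08, 10.07, 9.78 and 9.96 at t2. The ages did not overlap on any array, and the level fell by 1.54 on the log2 scale (SE 0.18, 2.9-fold, limma adjusted p = 2.7e-05). At t3 it lay between 9.26 and 10.06 and was not called to change further (-0.37, adjusted p = 0.19).

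Mitochondrial aconitase, aco-2, which turns citrate into isocitrate, was measured by 3 elements. The elements 17540 and 15604 fell by 1.11 (SE 0.16, adjusted p = 0.00012) and by 0.97 (SE 0.2, adjusted p = 0.0018). The first had levels of 10.49, 10.74, 10.5, 10.74 and 10.71 at t1, of 8.91, 9.97, 9.56 and 9.65 at t2, and of 9.48, 9.56, 9.63, 9.58 and 9.67 at t3. The t1 arrays were all above the t2 and t3 arrays, and t2 replicate 1 was the lowest of the 14. The second gave 10.2, 10.82, 10.42, 10.79 and 10.79 at t1 and 9, 10.15, 9.65 and 9.74 at t2, again with no overlap, while the third, element 6379, changed by -0.01 (adjusted p = 0.99). Neither fall was called without normalization between arrays (-0.96 and -0.82, adjusted p = 0.15 and 0.28).

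The NADP-dependent isocitrate dehydrogenase idh-1 had levels of 12.38, 12.45, 12.97, 12.62 and 12.8 at t1, and of 11.44, 11.71, 11.57 and 11.31 at t2. It fell by 1.13 (SE 0.17, 2.2-fold, adjusted p = 0.00013), with the ages apart. Malate dehydrogenase mdh-2, which closes the cycle by making oxaloacetate, went from 12.18, 11.55, 12.58, 12.04 and 12.35 to 10.09, 10.62, 11.58 and 10.69. This fall of 1.4 on average (SE 0.32, 2.63-fold, adjusted p = 0.0037) had 1 overlap, since t2 replicate 3 was slightly above t1 replicate 2, and was not called without normalization between arrays (-1.58, adjusted p = 0.055).

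The remaining TCA enzymes called lower had 1 called element each. Succinyl-CoA ligase alpha, sucl-1, changed by -1.01 (adjusted p = 0.0014) and the second NADP-dependent isocitrate dehydrogenase, idh-2, by -0.91 (adjusted p = 0.0011). The NAD-dependent isocitrate dehydrogenase subunit idha-1 and fumarase, fum-1, changed less, by -0.52 (adjusted p = 0.0089) and -0.48 (adjusted p = 0.013). The call on fum-1 was on the dimmer of its 2 elements, 8347. The brighter element, 13485, had mean levels of 12.11 at t1 and 11.86 at t2 and was not called. Not called were ogdh-1, the E1 subunit of 2-oxoglutarate dehydrogenase (-0.24, adjusted p = 0.4), mdh-1 (-0.52, adjusted p = 0.12) and citrate synthase, cts-1 (-0.61, adjusted p = 0.6, and adjusted p = 0.075 without the displaced spot). The second alpha ligase, sucl-2, changed by -1.31 (adjusted p = 0.079) with t2 levels of 11.33, 10.77, 11.84 and 8.51, so that t2 replicate 4 lay far below the other t2 arrays.

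Pyruvate dehydrogenase was split. Its E1 beta subunit, pdhb-1, fell by 1.09 (SE 0.19, adjusted p = 0.00062), whereas both elements of E1 alpha, pdha-1, changed by -0.14 and -0.16 (adjusted p = 0.67 and 0.72). Of 17 elements for other subunits of pyruvate and TCA metabolism, 4 were called lower and none higher. These were dld-1 (-1.26, adjusted p = 0.00012), the dihydrolipoamide dehydrogenase of both dehydrogenase complexes, sdha-1 (-1.31, adjusted p = 0.00017), a subunit of succinate dehydrogenase, idhb-1 (-1.37, adjusted p = 0.00086) and mpc-1 (-0.54, adjusted p = 0.007), a mitochondrial pyruvate carrier.

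In glycolysis, 8 of 27 elements were lower at t2 than at t1 and 1 was higher. The aldolase aldo-1, which splits fructose bisphosphate, had levels of 11.66, 11.68, 12.21, 11.55 and 11.91 at t1, of 10.24, 10.38, 10.55 and 10.22 at t2, and of 9.44, 9.89, 9.8, 9.98 and 9.73 at t3. Each age lay below the one before it with no overlap. The first step was 2.74-fold (-1.46, SE 0.14, adjusted p = 4.5e-06) and the second 1.5-fold (-0.58, SE 0.14, adjusted p = 0.011), the second without a call and with the opposite sign (0.58, adjusted p = 0.39) when arrays were not normalized to each other. The other aldolase, aldo-2, changed by -0.42 to -0.13 on 3 elements from t1 to t2, none called.

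Hexokinase, which makes glucose-6-phosphate, went the other way in 1 of its 3 genes. The levels of hxk-1 were 10.4, 9.81, 9.98, 10.24 and 9.82 at t1, 11.02, 11.13, 11.69 and 11.28 at t2, then 11.98, 11.46, 11.84, 11.74 and 12.2 at t3. The t1 arrays lay below all others, and t2 and t3 overlapped through t2 replicate 3 and t3 replicate 2. It rose by 1.23 (SE 0.18, 2.35-fold, adjusted p = 0.00011) and then by 0.56 (SE 0.18, 1.47-fold, adjusted p = 0.041), the later step without a call when channels were centred on bright elements (0.28, adjusted p = 0.28). Neither hxk-2 (-0.11, adjusted p = 0.72) nor hxk-3 (-0.54, adjusted p = 0.11) was called in the first step, nor in the second (adjusted p = 0.78 and 0.56).

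Phosphofructokinase commits sugar to glycolysis and is encoded by 2 genes in the worm. The dim gene pfk-1.2 had levels of 7.91, 8.47, 7.34, 7.43 and 7.35 at t1, of 6.01, 6.34, 6.08 and 5.87 at t2, and of 7.41, 7.38, 6.45, 7.01 and 6.91 at t3. It was high, then low on every t2 array, then in between, with no overlap between t2 and either other age. Its t2 spots exceeded background on 0 of 4 arrays for N2 and 1 of 4 for CB4856, so the folds rest on a level near background. It fell by 1.62 (SE 0.25, 3.08-fold, adjusted p = 0.00018) and rose by 0.95 (SE 0.25, 1.94-fold, adjusted p = 0.016). That rise shrank to 0.05 (adjusted p = 0.9) when channels were centred on bright elements instead of quantile normalized, and was not called without t2 replicate 4. Its relative pfk-1.1 fell on element 5951 by 0.82 (SE 0.14, adjusted p = 0.00057) and was not called on element 7887 (-0.63, adjusted p = 0.34), whose t1 arrays had an SD of 0.96.

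Further along the pathway, triosephosphate isomerase, tpi-1, changed by -1.02 (adjusted p = 0.00056) and lactate dehydrogenase, ldh-1, by -0.68 (adjusted p = 0.0043) from t1 to t2. Glyceraldehyde-3-phosphate dehydrogenase gpd-2 changed by -0.98 (adjusted p = 0.0055), whereas its close relative gpd-3 changed by -0.19 (adjusted p = 0.63). Pyruvate kinase pyk-2, the last step, changed by -0.71 (adjusted p = 0.0026), and glucose-6-phosphate isomerase, gpi-1, by -0.47 (adjusted p = 0.022) on 1 of 3 elements. On all arrays no call was made for phosphoglycerate kinase, pgk-1 (-0.19), enolase, enol-1 (0.05 and -0.13), or any of the 4 elements of pyk-1 (-0.25 to -0.03). Phosphoglycerate mutase, ipgm-1, changed by -0.65, which was not called on all arrays (adjusted p = 0.52) but was called without the displaced spot of t3 replicate 5 (SE 0.18, adjusted p = 0.012).

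The glutamine synthetases, which join ammonia to glutamate, moved in both directions. The levels of gln-2 were 10.04, 9.89, 8.54, 9.67 and 9.39 at t1, 6.41, 6.97, 6.17 and 6.6 at t2, then 8.72, 8.76, 7.26, 8.38 and 8.12 at t3. Every t2 array lay below every other array, and replicate 3 was the lowest of its age each time. At t2 the spots exceeded background on 0 of 4 arrays for N2 and 1 of 4 for CB4856, so the folds are measured against a level near background. The measured fall was 7.82-fold (-2.97, SE 0.34, adjusted p = 1.8e-05) and the rise 3.27-fold (1.71, SE 0.34, adjusted p = 0.0035). With arrays of the same title number averaged, the rise was not called (adjusted p = 0.07).

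Conversely, gln-6 was dim at t1, at 6.72, 6.09, 6.53, 7.15 and 6.36, and reached 8.18, 8.38, 8.77 and 8.43 at t2 and 8.68, 8.5, 7.85, 8.7 and 8.63 at t3. Its t1 spots exceeded background on 0 of 5 arrays for N2 and 3 of 5 for CB4856, and the measured rise from this base was 3.65-fold (1.87, SE 0.22, adjusted p = 2.2e-05), with t1 apart from both later ages, and then changed by 0.03 (adjusted p = 0.94). The t1 levels of gln-5 were 9.72, 8.83, 9.02, 10.6 and 8.17, and its t2 levels 11.96, 11.12, 11.92 and 11.49. They did not overlap, and the rise was 5.11-fold (2.35, SE 0.82, adjusted p = 0.041). Without the spot of t3 replicate 5, which lay in the displaced blocks and widened the common spread, the same rise had an SE of 0.43 and an adjusted p of 0.00078. With that spot kept, its call was lost without any t2 array, without t1 replicate 1, 2, 3 or 5 and without t3 replicate 2. Its other t3 arrays read 12.13, 11.2, 11.84 and 12.51. Glutamate dehydrogenase, gdh-1, changed by -0.52 (adjusted p = 0.04) from t1 to t2, and gln-1 was called in neither step (-0.25 and 0.3).

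**Figure D2:**
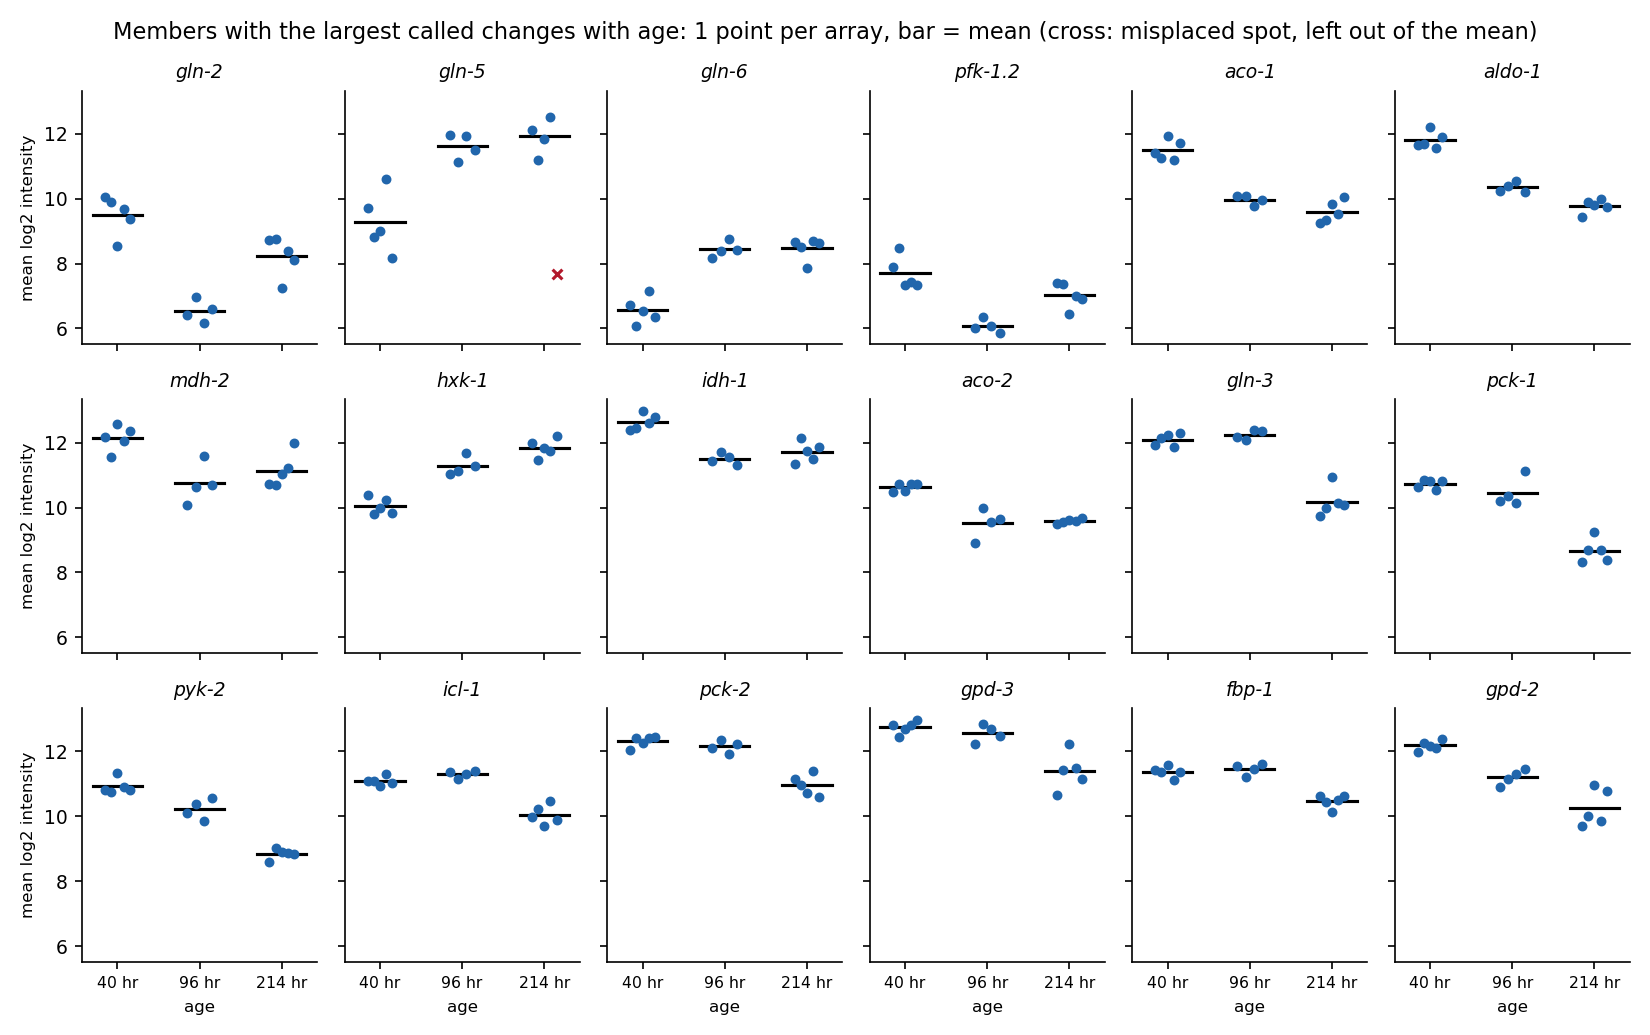
Mean log2 intensity of both strains (vertical axis) at 40 hr, 96 hr and 214 hr for the member genes with the largest called age changes. Each panel shows the brightest called element of a gene, with 1 point per array and a bar at the mean. A cross marks the gln-5 spot of t3 replicate 5, which lay in the displaced blocks. In the panels from gln-2 to aco-2 the larger change lies between 40 hr and 96 hr, and gln-2 and pfk-1.2 rise again by 214 hr. In those from gln-3 to fbp-1 it lies between 96 hr and 214 hr. The genes aldo-1, pyk-2 and gpd-2 fall in both steps, and hxk-1 rises in both. Without normalization between arrays the last step of aldo-1, fbp-1 and gpd-2 changes sign.

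Markers of other tissues and stages moved over the same interval. Of 27 muscle marker elements, 16 fell and none rose, with summed intensities of 117620 to 193674 per channel at t1 and of 56477 to 128828 at t2, then 3 elements above background in no channel of either age. Of 20 sperm marker elements 16 fell, with sums of 146707 to 428919 at t1 and of 12190 to 147175 at t2. The t2 sums ran from 12190 to 28532 in N2 and from 24348 to 147175 in CB4856. At that age 1 sperm marker element was called higher in CB4856 and none lower. Then 15 sperm marker elements rose again to t3, with sums of 65296 to 249958, the order of gln-2 and pfk-1.2. Of 17 oocyte and embryo marker elements 15 rose, with sums of 11714 to 69884 at t1 and of 123588 to 196132 at t2, as hxk-1, gln-5 and gln-6 did. Of 19 larval molting elements 15 fell. Of 25 intestinal marker elements 7 rose and 9 fell, with sums of 73925 to 248289 at t1 and of 259373 to 330912 at t2. The part of these tissues in the changes of the enzymes was not tested.

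In the neighbouring pathways, the pentose phosphate pathway, another route of glucose oxidation, had 5 of 8 elements lower at t2 and none higher. Transaldolase, tald-1, fell on all 3 elements, by 1.55, 1.19 and 0.94 (adjusted p = 4.6e-05, 1.4e-05 and 3.3e-05). The remaining calls were for tkt-1, a transketolase (-0.72, adjusted p = 0.016), and rpia-1, ribose-5-phosphate isomerase (-0.59, adjusted p = 0.00055). Among 13 elements of trehalose and glycogen metabolism 2 were lower and 2 higher, with gyg-2, a glycogenin, at 2.99 (SE 0.31, adjusted p = 8e-06) above its t1 level.

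From 96 hr to 214 hr the enzymes of gluconeogenesis and the glyoxylate cycle fell relative to the other elements of the arrays. Of the 62 member elements 15 (13 genes) were called lower and 4 (4 genes) higher, against 19.7% called among all worm elements, 10.3% lower and 9.42% higher. The medians were -0.14 for the members and 0.01 for all elements. None of the 15 falls was called when arrays were not normalized to each other, a setting in which the median of all worm elements moved to 0.29, 15 member elements were called higher and none lower, and 7 of the 19 called members changed sign. When each channel was instead centred on the 6280 elements above background everywhere, 27 members were called lower and 1 higher. The directions that follow are therefore relative to the rest of the transcripts on the array.

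All 4 genes of gluconeogenesis were called lower, on 5 of 8 elements, and the other 3, all of pck-1, were above background in no channel. Phosphoenolpyruvate carboxykinase makes phosphoenolpyruvate from oxaloacetate. Its gene pck-1 had levels of 10.64, 10.84, 10.83, 10.53 and 10.81 at t1 on element 17075, of 10.19, 10.36, 10.13 and 11.13 at t2, and of 8.33, 8.68, 9.25, 8.68 and 8.38 at t3. The t3 arrays lay below all others, and t1 and t2 overlapped (-0.27, adjusted p = 0.39). The later fall was 3.46-fold (-1.79, SE 0.21, adjusted p = 9.8e-05).

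Element 11598 of pck-1 was dim and fell in the same step by 0.74 (SE 0.19, adjusted p = 0.014). Its levels were 7.36, 7.24, 7.1 and 7.34 at t2 and 6.59, 6.53, 6.64, 6.57 and 6.26 at t3, with no overlap. The second carboxykinase, pck-2, read 12.05, 12.4, 12.26, 12.4 and 12.44 at t1, 12.1, 12.36, 11.93 and 12.22 at t2, then 11.16, 10.98, 10.71, 11.4 and 10.61 at t3. It was not called in the first step (-0.16, adjusted p = 0.51) and 2.27-fold lower after the second (-1.18, SE 0.15, adjusted p = 0.00018), with every t3 array below every other.

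Fructose-1,6-bisphosphatase, fbp-1, which reverses the phosphofructokinase step, had the same course. Its levels were 11.42, 11.37, 11.59, 11.13 and 11.36 at t1, 11.54, 11.21, 11.45 and 11.6 at t2, then 10.63, 10.44, 10.14, 10.5 and 10.64 at t3. The first ages overlapped (0.08, adjusted p = 0.72) and the third lay below both. It changed by -0.98 (SE 0.12, 1.97-fold, adjusted p = 0.00011), and by 0.16 (adjusted p = 0.77) with no normalization between arrays. Pyruvate carboxylase, pyc-1, changed by -0.46 (SE 0.13, adjusted p = 0.024), after -0.35 in the first step (adjusted p = 0.055).

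The single gene of the glyoxylate cycle, icl-1, encodes 1 protein with both isocitrate lyase and malate synthase. On element 6868 its levels were 11.09, 11.1, 10.94, 11.29 and 11.02 at t1, 11.37, 11.15, 11.29 and 11.39 at t2, then 9.97, 10.21, 9.69, 10.48 and 9.88 at t3. The t3 arrays lay below all others, 2.38-fold lower than t2 (-1.25, SE 0.14, adjusted p = 5e-05). Element 4932 gave 10.54, 9.85, 10.36 and 10.58 at t2 and 9.08, 9.47, 9.09, 9.33 and 9.17 at t3, also apart (-1.11, SE 0.33, adjusted p = 0.031), while its t1 arrays ranged from 8.76 to 10.77. Its call was lost without t2 replicate 1, 3 or 4 or t3 replicate 1, 4 or 5. The third element, 16535, changed by -0.53 and was not called (SE 0.19, adjusted p = 0.07).

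In glycolysis 5 elements were lower at t3 than at t2 and 3 higher. Pyruvate kinase pyk-2 had levels of 10.81, 10.76, 11.33, 10.9 and 10.81 at t1, of 10.09, 10.37, 9.84 and 10.56 at t2, and of 8.6, 9.03, 8.89, 8.88 and 8.84 at t3. The ages were in descending order with no overlap, and the later step was 2.58-fold (-1.37, SE 0.15, adjusted p = 6.2e-05). The other pyruvate kinase, pyk-1, changed by -0.37 to 0.09 on its 4 elements, 2 of them dim, with no call.

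The dehydrogenase gpd-3 read 12.82, 12.44, 12.7, 12.81 and 12.98 at t1, 12.24, 12.83, 12.69 and 12.46 at t2, then 10.66, 11.43, 12.22, 11.5 and 11.15 at t3. It changed by -1.16 (SE 0.24, 2.24-fold, adjusted p = 0.005), and t3 replicate 3 came within 0.02 of the lowest t2 array. The neighbouring gene gpd-2 read 11.98, 12.27, 12.18, 12.11 and 12.39 at t1, 10.9, 11.14, 11.31 and 11.46 at t2, then 9.69, 10, 10.95, 9.86 and 10.79 at t3. It changed by -0.95 (SE 0.24, 1.93-fold, adjusted p = 0.014), with t3 replicate 3 inside the t2 range, and by 0.19 (adjusted p = 0.78) with no normalization between arrays. Both genes code for closely related proteins, and cross-hybridization between them was not tested. Aldolase aldo-2 was called on 1 of 3 elements (-0.64, adjusted p = 0.02), and gpi-1, which interconverts the hexose phosphates, was higher on 1 of 3 (0.55, SE 0.15, adjusted p = 0.017, and 0.42 with adjusted p = 0.11 when channels were centred on bright elements).

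The largest later fall among the members was that of the glutamine synthetase gln-3. It read 11.93, 12.15, 12.23, 11.86 and 12.3 at t1, 12.16, 12.08, 12.39 and 12.36 at t2, then 9.74, 9.99, 10.93, 10.14 and 10.09 at t3. The t3 arrays were all below the others, 4.19-fold under t2 (-2.07, SE 0.19, adjusted p = 1.7e-05), and t3 replicate 3 was the highest of them.

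The TCA cycle changed less in this interval, with 2 of 15 elements called lower, sucl-1 (-0.67, adjusted p = 0.033) and mdh-1 (-0.74, adjusted p = 0.046), and none higher. The median of its 15 elements was -0.09, with the displaced spot of cts-1 included. A median this close to 0 may change sign without that spot. Of the enzymes called lower in the first step, idh-1 (0.21, adjusted p = 0.44), mdh-2 (0.39, adjusted p = 0.45), idha-1 (0.17), fum-1 (0.02) and both called elements of aco-2 (0.06 and -0.14) were not called in the second. For cts-1 the change was -0.42 with the displaced spot and 0.39 without it (adjusted p = 0.75 and 0.34), and for ipgm-1 it was 0.19 and -0.56 (adjusted p = 0.88 and 0.052).

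Of 25 intestinal marker elements, the tissue where the worm stores fat, 9 were lower at t3 than at t2 and none higher, and their sums ran from 259373 to 330912 at t2 and from 160851 to 299018 at t3. Of 27 muscle elements 14 fell, to sums of 26959 to 65310. Their part in the later falls was not tested. Of 17 elements of other pyruvate and TCA subunits, 2 were lower and 1 higher in this step. Within each scan session, all 23 members called in the first step and all 19 called in the second changed in the same direction as over all arrays, in 4 sessions and in the 3 that held t3 arrays. This is a description, since the members were called on the same arrays.

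The strains differed in few of these enzymes. At t1, 2 of 62 elements had a higher level in CB4856 and none a lower one, against 2.65% called among all worm elements, 1% higher and 1.65% lower. Both belonged to aco-2. On element 17540 the log2 ratios of CB4856 over N2 were 0.49, 0.87, 0.49, 0.23 and 0.38 at t1, all above 0, for a difference of 0.47 (SE 0.1, 1.38-fold, adjusted p = 0.025). On element 15604 they were 0.37, 0.84, 0.44, 0.12 and 0.57, also all above 0 (0.45, SE 0.1, 1.37-fold, adjusted p = 0.03). The third element, 6379, gave 0.3, 0.74, 0.01, 0.4 and 0.92 (0.47, SE 0.12, adjusted p = 0.057).

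At the later ages the ratios of aco-2 were closer to 0. Element 17540 read 0.05, 0.45, 0.3 and -0.35 at t2 and 0.04, 0.28, 0.51, 0.31 and 0.24 at t3, the t3 arrays all above 0 without a call (0.25, adjusted p = 0.25). The change of its ratio from t1 to t2 was -0.42 (adjusted p = 0.41). Neither called element passed the threshold without t1 replicate 1, 2 or 5, and without t1 replicate 4 element 17540 did not. Neither was called with arrays of the same title number averaged.

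At t2, 1 of 62 elements was lower in CB4856 and none higher, against 2.64% called among all worm elements, 1.56% lower and 1.08% higher. It was the dim element 11598 of pck-1, with ratios of -1.78, -0.83, -0.73 and -0.61 (-1.03, SE 0.22, 2.05-fold, adjusted p = 0.022). N2 read 8.25, 7.66, 7.47 and 7.64 and CB4856 6.47, 6.83, 6.74 and 7.03, with no overlap, and CB4856 was above background on 1 of the 4 arrays. The ratios at t1 were -0.82, -0.12, 0.23, -0.74 and -1.03 (adjusted p = 0.23) and at t3 -0.75, -0.24, -0.04, -0.47 and -0.45 (adjusted p = 0.34), so 13 of 14 arrays were below 0. Element 17075 of the same gene, above background in every channel, was called at no age (adjusted p = 0.86, 0.42 and 0.94). Without t2 replicate 1 the difference of element 11598 was not called.

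At t3, 3 of 62 elements were lower in CB4856 and none higher, against 3.42% called among all worm elements, 1.85% lower and 1.57% higher. All 3 were the elements of icl-1. On element 16535 the ratios at t3 were -0.78, -0.77, -1.24, -0.87 and -1.24, on element 6868 -1.01, -0.6, -1.1, -0.74 and -0.96, and on element 4932 -0.69, -0.38, -0.85, -0.92 and -0.81. CB4856 was below N2 on all 5 arrays with all 3 elements and with either dye. The differences were -0.98 (SE 0.22, 1.98-fold, adjusted p = 0.024), -0.88 (SE 0.2, 1.84-fold, adjusted p = 0.029) and -0.77 (SE 0.16, 1.7-fold, adjusted p = 0.018). The 3 elements measure the transcripts of 1 gene and are not independent.

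**Figure D3:**
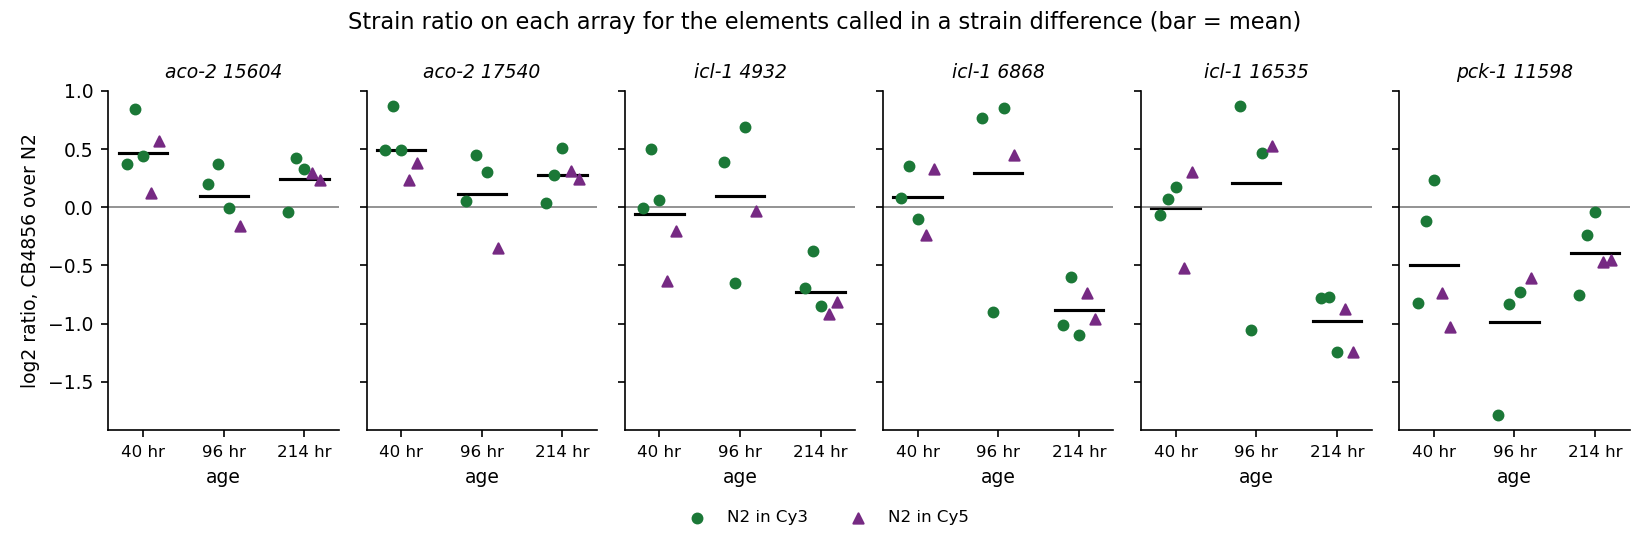
Log2 ratio of CB4856 over N2 (vertical axis) on each array at 40 hr, 96 hr and 214 hr for the 6 elements called in a strain difference, with circles for N2 in Cy3, triangles for N2 in Cy5 and a bar at the mean. All 15 values of icl-1 at 214 hr lie below 0, and among its values at 96 hr the lowest on each element is that of replicate 2.

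At the younger ages the ratios of icl-1 lay on both sides of 0. On element 6868 they were 0.08, 0.35, -0.1, -0.24 and 0.33 at t1 and 0.77, -0.9, 0.85 and 0.45 at t2. On element 16535 they were -0.07, 0.07, 0.17, -0.52 and 0.3 at t1 and 0.87, -1.05, 0.47 and 0.53 at t2. No element was called at t1 (adjusted p = 0.91, 0.94 and 1) or at t2 (adjusted p = 0.99, 0.6 and 0.77). The t2 arrays other than replicate 2 were above 0 on both of these elements, and without that array element 6868 was called higher in CB4856 at t2 (0.68, adjusted p = 0.021).

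In N2, element 6868 had a mean level of 11.15 ± 0.32 (SD, n = 4) at t2 and of 10.49 ± 0.23 (SD, n = 5) at t3, and in CB4856 of 11.45 ± 0.5 and 9.6 ± 0.4. On element 16535 N2 went from 10.53 ± 0.39 to 10.59 ± 0.43 and CB4856 from 10.73 ± 0.69 to 9.61 ± 0.26. At t3 the strains did not overlap on elements 6868 and 4932 or on element 16535.

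**Figure D4:**
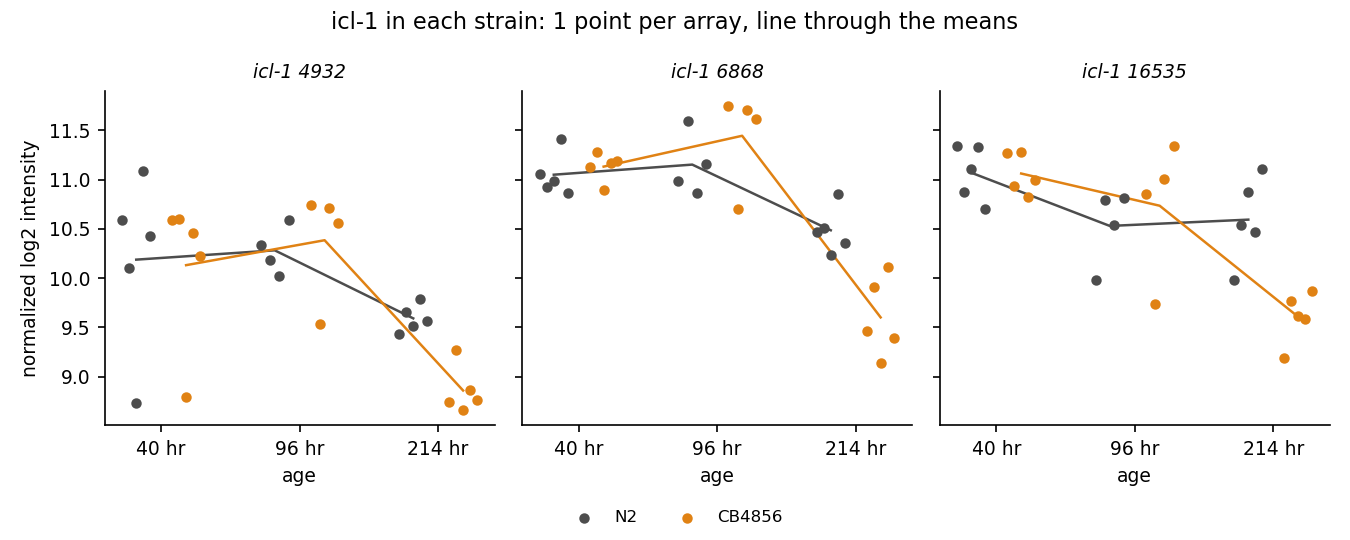
Normalized log2 intensity (vertical axis) of the 3 elements of icl-1 in N2 (grey) and CB4856 (orange) at 40 hr, 96 hr and 214 hr, 1 point per array with a line through the means. At 214 hr all CB4856 points lie below all N2 points on each element, and at 96 hr the lowest CB4856 point of each element is replicate 2.

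Among the other members no strain difference was called in the fit over all arrays. The fitted differences of all 62 elements ran from -0.8 to 0.83 at t1, from -1.03 to 0.43 at t2 and from -0.98 to 0.42 at t3, and 46, 34 and 28 of them were above 0. At an unadjusted p under 0.05 there were 11, 6 and 12 of 62 members, beside 2933, 3192 and 3379 of all 22490 worm elements. Wide differences without a call were those of gpi-1 on the elements 4501 (-0.8, -0.86 and -0.86 by age) and 6437 (-0.69, -0.58 and -0.64), with adjusted p from 0.35 to 0.59, while its element 8373 gave 0.03, -0.06 and 0. The 3 elements thus did not read alike. For gln-5 the difference at t1 was 0.83 (SE 0.33, adjusted p = 0.27), and 0.82 (adjusted p = 0.3) without the displaced spot. It was called without t1 replicate 2 (1.25, adjusted p = 0.019) and with spots of scanner flag code 3 alone (1.53, adjusted p = 0.01).

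The change of the strain difference was called for none of the 62 elements in either interval by limma, against 0.734% of all worm elements from t1 to t2 (0.36% lower, 0.373% higher) and 0.187% from t2 to t3 (0.0667% lower, 0.12% higher). At an unadjusted p under 0.05 there were 5 members in the first interval and 6 in the second, beside 1938 and 1432 of all 22490 worm elements. The 6 included all 3 elements of icl-1, which changed by -1.19 (SE 0.3, adjusted p = 0.25), -1.18 (SE 0.32, adjusted p = 0.32) and -0.78 (SE 0.24, adjusted p = 0.41). Without t2 replicate 2, these 3 changes were called, at -1.57, -1.59 and -1.05 (adjusted p = 0.0062, 0.0064 and 0.03). Lactate dehydrogenase, ldh-1, changed by -0.57 in the same interval (adjusted p = 0.27) and aldo-1 by -0.55 (adjusted p = 0.54).

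The calls on icl-1 at t3 were close to the threshold. With scan session as a block, elements 16535 and 6868 were not called (adjusted p = 0.068 and 0.078) and element 4932 was (adjusted p = 0.049), and with no background correction element 6868 was not (adjusted p = 0.058). With arrays of the same title number averaged, none of the 3 elements was called. Without t3 replicate 1, 4 or 5 none of the 3 elements was called either, and without replicate 2 or 3 only 1 was. The differences stayed between -1.03 and -0.64 over all alternatives. At t3, 6 of 27 muscle elements and 4 of 25 intestinal marker elements were higher in CB4856, with none lower. Of the 13 elements of trehalose and glycogen metabolism, 1 was higher in CB4856 at t3, tre-2, a trehalase (0.5, SE 0.11, adjusted p = 0.023), and 1 was lower at t1, gyg-1 (-0.32, SE 0.08, adjusted p = 0.048).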

How the data were processed

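RNA of N2 and CB4856 was measured together on 14 arrays with 60-mer oligonucleotides. The deposited spot values are intensities, the mean intensity and median local background of each dye, which the authors took with ScanArray Express (fixed circle), neither corrected nor normalized. The percent of saturated pixels per spot was deposited too, and no member spot was saturated. A table of log2 ratios, N2 over CB4856, was deposited as well, normalized by the authors with limma (within-array loess and between-array quantile by the methods); it was used for 1 alternative, with its sign turned.

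Intensities were background corrected (normexp, offset 50), normalized by loess within and quantiles between arrays, and tested with limma 3.58.1 in R 4.3.3. Strain differences and their changes came from 1 fit of the ratios with age means and a dye term, and age effects from the mean log2 intensity with age means. P-values were adjusted (Benjamini-Hochberg) over 22490 worm elements; 742 spots were controls or empty. A log2 change near the offset understates the change of dim elements. The design of each fit was also run on simulated data. The number of arrays limits the precision.

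Members were matched through the gene symbol of the platform table or the CDS name; icl-1 is listed there under an older name. Array values are given for each member called in a strain comparison and for the 10 genes with the largest called change in each age step. The members and lists were chosen with earlier results of these data known. Replicate numbers shared across ages were not taken to pair the arrays. Whether arrays of the same title number shared a culture or extract was not tested. Alternatives were other background, normalization, filter, block and model choices, the methods' linear model, and each array left out. Centring on bright elements and leaving out the displaced spots of t3 replicate 5 were added after the data were seen. No sequence of the members was used here.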

Additional observations from a re-analysis of the deposited data

Results flagged for a closer look

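Of 52 groups of 4 or 5 array values behind the named results, 1 held a value far from the others, where chance alone gives about 1 in 20. The dim element 11598 of pck-1 had a level of 6.26 on t3 replicate 5, and the nearest other t3 array read 6.53, a gap of 0.711 of the whole range. The spot lay outside the displaced blocks of that array. The t2 strain ratios of pyk-2 and idh-2, given under other observations, were not among the groups tested.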

How the results depend on the processing

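Members were called in the methods' linear model at an unadjusted p under 0.01, unlike the adjusted p under 0.05 used elsewhere. Counts of called members moved as follows. At t1 the 2 strain differences became 0 with dim elements filtered out and 1 with flag code 3 spots (gln-5, neither of the aco-2 elements). They became 0 with the t1 arrays alone, 0 with arrays of the same title number averaged and 1 with the methods' linear model. With an array left out they became 0 to 4. At t2 the 1 difference became 0 with flag code 3 spots, a setting in which its element was not tested, and 0 with the t2 arrays alone. It became 2 with a replicate block and 2 with the methods' linear model, and 0 to 2 with an array left out. The added call with the block was pdhb-1 (0.44, adjusted p = 0.042) and with the linear model aldo-1 (0.43, unadjusted p = 0.0098). At t3 the 3 became 4 with the replicate block (pdhb-1 added, 0.36, adjusted p = 0.047) and 4 with the methods' linear model (aco-2 element 17540 added, 0.28), 1 with scan session as a block and 0 with arrays averaged, and 0 to 3 with an array left out. From t1 to t2 the 23 age calls became 9 without normalization between arrays (7 of them shared, none reversed), and 21 to 26 with an array left out. From t2 to t3 the 19 became 15, all higher, without that normalization (fbp-1 at 0.16 and gpd-2 at 0.19), 11 with arrays averaged, and 12 to 19 with an array left out, the lowest without t2 replicate 4. The change of the strain difference from t2 to t3 gave 1 call with the methods' linear model and 0 to 3 with an array left out. Among all worm elements, 54.6% of calls from t1 to t2 and 47.7% from t2 to t3 were higher, against 39% and 95.5% without normalization between arrays, and 24.8% and 6.48% with centring on bright elements, which moved the medians of all elements to -0.42 and -0.87.

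Arrays of the same replicate number at 2 ages correlated at -0.343 to 0.321 in their ratio deviations and at -0.0479 to 0.278 in intensity. The replicate block grouped the arrays by title number instead, and with it 23 of the 23 and 18 of the 19 age calls remained. Median spot intensities of 191 to 303 over backgrounds of 163 to 183 limit what dim elements show.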

Other observations

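On t2 replicate 2, several members read unlike the other t2 arrays in the log2 ratio of CB4856 over N2, a pattern chosen after its values were seen. The ratios on replicates 1 to 4 were 0.29, -2.03, 0.05 and -0.44 for element 17075 of pck-1, 0.02, -1.63, 0.11 and 0.04 for pyk-2, 0.52, -1.24, 0.36 and -0.17 for gpd-2, 0.69, -0.75, 0.69 and 0.45 for gln-3, and 0.2, -0.83, 0.19 and 0.21 for idh-2. In the opposite direction, element 4501 of gpi-1 read -1.96, 0.6, -0.89 and -0.68 and gln-5 read 0.23, 1.29, -0.03 and -0.2. The cause was not tested.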
